A study of Mus musculus with 8 samples.

Results

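Cebpa, Cebpb, Cebpd and Cebpg encode C/EBPα, C/EBPβ, C/EBPδ and C/EBPγ of the CCAAT/enhancer-binding protein family, and they are described here in every library of a mouse kidney RNA-seq series. They are 4 of the 77981 genes in the table, taken by gene symbol, and they were chosen by their measured TPM, since Cebpb was seen to differ between groups and between AVP-flox;Cre libraries. Their differences between groups are therefore given as a description, with no test.

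The series concerns an inducible mouse line with a floxed Avp, the gene of the hormone vasopressin, whose loxP sites were placed in intron 1 and downstream of the gene. 4 libraries carry the genotype AVP-flox and 4 the genotype AVP-flox;Cre, which adds a Cre recombinase and is called the Cre group below, and all 8 carry the treatment label tamoxifen, so the controls share both the floxed allele and the drug. The promoter that drives Cre, the ages of the mice and the tissue in which Avp was deleted are not given in the labels used here. The tissue is kidney and the cell type label is IMCD, for inner medullary collecting duct, the segment that recovers water under vasopressin.

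Levels are given as TPM, a relative transcript abundance corrected for length, with an equal total in all libraries. Read numbers cannot be had from TPM, sequencing depth is therefore unknown, and a value of 0 is only listed as 0. The labels do not say whether replicates were separate mice, and p-values therefore measure only the spread between these samples. Aqp2, the vasopressin-regulated water channel of this duct, was at 14915 to 18131 TPM in AVP-flox and 5443 to 7036 TPM in the Cre group. Avp itself was listed at 0 to 0.24 and 0 to 0.27 TPM, so its level in these kidney libraries checks nothing about the deletion. AVP-flox;Cre 2 had 33576 genes above 0 against 50951 to 58232 in the other libraries.

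C/EBP proteins bind DNA as dimers through a basic region and a leucine zipper. C/EBPβ and C/EBPδ are classically induced by cytokines, hormones and cyclic AMP and drive acute phase and inflammatory genes, while C/EBPα is tied to differentiation, metabolism and arrest of growth. C/EBPγ lacks the activation domains of the others and often acts as a dimer partner, also with ATF4 in the response to amino acid shortage. Several members are translated from more than 1 start codon of a single mRNA, which gives long activating and short inhibitory proteins that mRNA levels cannot tell apart.

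The promoter of Cebpb, the gene with the largest difference, is shown with that of Cebpa so that the sequence features described beside the levels can be seen. The sequences are the 250 bases before the annotated start in RefSeq on the build GRCm38.p6, written 5′ to 3′ in the direction of the gene, and 3 of the 4 genes had a match in that table. The Cebpb window is chr2:167688665-167688914 and the Cebpa window chr7:35119043-35119292, both on the plus strand. Capitals mark TGACG on either strand in Cebpb, the core of the cyclic AMP response element bound by CREB and ATF proteins. In Cebpa they mark TTGCG, a piece of the C/EBP site, and TATAAA, the TATA box.
Cebpb: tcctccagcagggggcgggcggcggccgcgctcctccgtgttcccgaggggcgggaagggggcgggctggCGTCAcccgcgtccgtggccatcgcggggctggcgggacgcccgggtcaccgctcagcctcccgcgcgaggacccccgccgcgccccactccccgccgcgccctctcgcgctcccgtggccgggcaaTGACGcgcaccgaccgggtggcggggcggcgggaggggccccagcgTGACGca
Cebpa: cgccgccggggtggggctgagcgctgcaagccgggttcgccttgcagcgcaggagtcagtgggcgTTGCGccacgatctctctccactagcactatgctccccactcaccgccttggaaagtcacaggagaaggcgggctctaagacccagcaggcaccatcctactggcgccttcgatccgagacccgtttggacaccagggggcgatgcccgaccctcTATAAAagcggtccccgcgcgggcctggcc

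The Cebpb window held TGACG 3 times, at 180 to 176 bases before the start on the minus strand and at 53 to 49 and 7 to 3 bases before it on the plus strand. On both strands together, 17.9% of 27025 promoter windows in the table held TGACG at least once and 4.02% held it 2 or more times. GGGCGG, the GC box, occurred 5 times there, 2 of these occurrences overlapping each other, and at least once in 32.9% of windows. TTGCG and the TATA box had no match in that window, and neither had the full cyclic AMP response element TGACGTCA or the full C/EBP palindrome, which is TTGCGCAA. The Cebpa window held TTGCG at 185 to 181 bases and TATAAA at 30 to 25 bases before its start, motifs present in 14.6% and 13.0% of windows. None of these 6 motifs had a match in the Cebpg window. The GC share was 81.6% in the Cebpb window, 66.4% in that of Cebpa and 70.8% in that of Cebpg, against a median of 52.0%, and 0.629% of windows were richer in GC than that of Cebpb.

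The first 150 coding bases of Cebpb are shown from its transcript in GENCODE M21, with in-frame ATG codons in capitals, because more than 1 of them starts a C/EBPβ protein.
Cebpb: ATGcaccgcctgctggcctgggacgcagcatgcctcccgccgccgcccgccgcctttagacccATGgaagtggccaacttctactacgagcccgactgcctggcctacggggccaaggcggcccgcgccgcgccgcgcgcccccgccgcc

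In Cebpb the in-frame ATG codons in this stretch were codons 1 and 22, from which the long C/EBPβ forms are translated. The GC share of the whole coding sequence was 73.4% in Cebpb (888 nt), 71.9% in Cebpa (1077 nt) and 70.4% in Cebpd (804 nt). In that annotation Cebpb has 1 exon and 1 transcript, and each of the other members has a transcript of 2 exons.

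Cebpb held the largest difference of the family. It (ENSMUSG00000056501) was at 27.46, 62.49, 113.83 and 116.1 TPM in AVP-flox 1 to 4 and at 24.95, 0.5, 1.94 and 1.41 TPM in AVP-flox;Cre 1 to 4. The AVP-flox libraries spread over a 4.23-fold range with replicate 1 lowest, and AVP-flox;Cre 1 stood far above the other 3 of its group, next to AVP-flox 1. The groups did not overlap, but the lowest AVP-flox library exceeded the highest Cre library by a factor of only 1.10. Mean levels were 79.97 ± 42.9 TPM (SD, n = 4) and 7.20 ± 11.8 TPM (SD, n = 4), a ratio of 11.1. On the log2(TPM + 1) scale used for all differences here, AVP-flox;Cre minus AVP-flox was -4.11 with a standard error (SE) of 0.81.

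The level of Cebpb in the Cre group rested on which libraries were counted. AVP-flox;Cre 2 to 4 averaged 1.28 ± 0.73 TPM (SD, n = 3), which lay 62.3-fold under the AVP-flox mean. AVP-flox;Cre 1 held 31.2% of the AVP-flox mean and 19.4 times the mean of the other 3. Without AVP-flox;Cre 1 the log2 difference was -5.00, without AVP-flox;Cre 2 it was -3.63, and with AVP-flox;Cre 1 alone on its side it was -1.44. AVP-flox;Cre 1 was not close to AVP-flox in Aqp2, where its 7036 TPM lay next to the 6827 TPM of AVP-flox;Cre 3, nor in Ddit3, where it was the lowest of all 8 libraries.

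Among 19043 genes tested across the table, those averaging 1 TPM or more over all libraries, no gene had a lower log2 difference than Cebpb in this fit, and 1.38% had a larger SE. With limma and an adjusted p under 0.05, 27.3% of tested genes were called, 13.1% higher and 14.2% lower in the Cre group. Groups did not overlap for 29.5% of tested genes, with the Cre group lower in 14.9%. By comparison, 2 of the 4 members, Cebpb and Cebpa, had groups that did not overlap, and nothing is read from this count because these values chose the members.

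**Figure D1:**
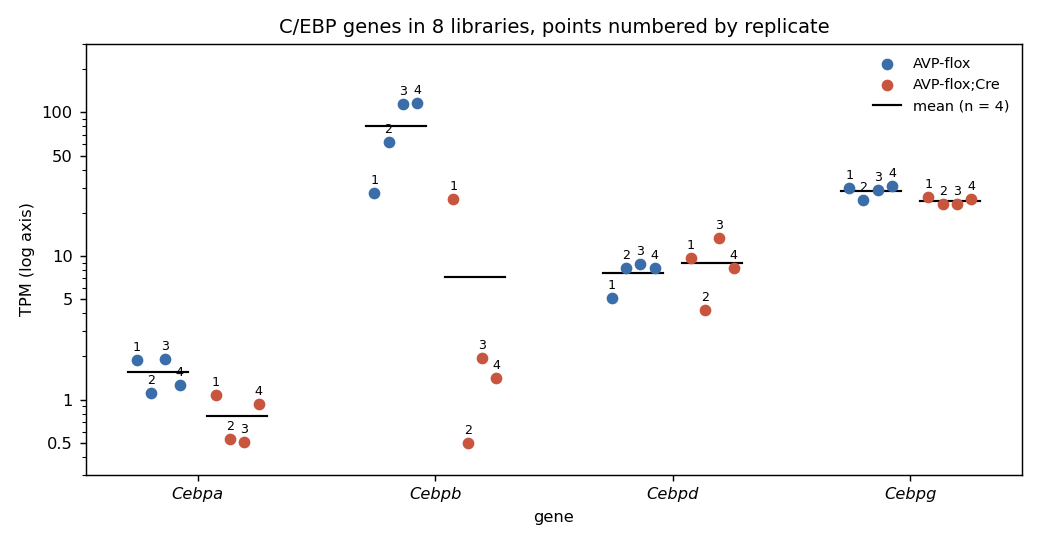
TPM of Cebpa, Cebpb, Cebpd and Cebpg on a log axis in each of the 8 libraries, AVP-flox in blue and the Cre group in red, each point numbered by its replicate and each group mean drawn as a line. Cebpb lies between 0.5 and 1.94 TPM in AVP-flox;Cre 2 to 4 but is at 24.95 TPM in AVP-flox;Cre 1, while Cebpd and Cebpg overlapped between groups.

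Cebpa (ENSMUSG00000034957), the member tied to differentiation, was near the lower limit of the tested range. It was at 1.89, 1.12, 1.92 and 1.26 TPM in AVP-flox 1 to 4 and at 1.08, 0.53, 0.51 and 0.94 TPM in AVP-flox;Cre 1 to 4. Every AVP-flox library was above every Cre library, with AVP-flox 2 only 1.04-fold above AVP-flox;Cre 1. Mean levels were 1.55 ± 0.42 and 0.765 ± 0.289 TPM (SD, n = 4 each), a ratio of 2.02. Only AVP-flox, the group where it was higher, thus carried Cebpa past the 1 TPM filter. The log2 difference was -0.53 (SE 0.23), -0.96 with a pseudocount (the value added before the log) of 0.1 TPM and -0.18 with one of 5 TPM. With AVP-flox;Cre 1 alone on its side the difference was -0.28. In AVP-flox 84.6% of tested genes had a higher mean level than Cebpa.

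Cebpd (ENSMUSG00000071637), the other cytokine-induced member, had groups that overlapped, unlike Cebpb. Its levels were 5.07, 8.21, 8.87 and 8.25 TPM in AVP-flox 1 to 4 and 9.77, 4.21, 13.38 and 8.23 TPM in AVP-flox;Cre 1 to 4. Both the lowest and the highest library belonged to the Cre group, and the group covered the whole AVP-flox range. Means were 7.60 ± 1.71 and 8.90 ± 3.8 TPM (SD, n = 4 each), with a log2 difference of 0.14 (SE 0.29), smaller than its error. Leaving out AVP-flox;Cre 3 gave -0.07 and leaving out AVP-flox;Cre 2 gave 0.41.

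Cebpg (ENSMUSG00000056216), the dimer partner, had the narrowest spread of the 4 relative to its mean. Its SD was 9.12% of the mean in AVP-flox and 5.86% in the Cre group. It was at 29.81, 24.73, 28.76 and 30.55 TPM in AVP-flox 1 to 4 and at 25.89, 23.07, 22.97 and 24.81 TPM in AVP-flox;Cre 1 to 4. AVP-flox 2 lay inside the range of the Cre group, and the other 3 AVP-flox libraries lay above it. The means were 28.5 ± 2.59 and 24.2 ± 1.42 TPM (SD, n = 4 each), so the Cre group was at 0.85 of AVP-flox, with a log2 difference of -0.22 (SE 0.09).

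The order of the members by level changed between libraries. In AVP-flox 2 to 4 it was Cebpb, Cebpg, Cebpd and Cebpa from high to low. AVP-flox 1 and AVP-flox;Cre 1 shared another order, with Cebpg just above Cebpb. In AVP-flox;Cre 2 to 4 Cebpg and Cebpd were the highest, and Cebpb was lowest in AVP-flox;Cre 2 and above only Cebpa in AVP-flox;Cre 3 and 4. In the Cre group Cebpb averaged 7.20 ± 11.8 and Cebpd 8.90 ± 3.8 TPM (SD, n = 4 each). Within libraries Cebpb was 2.55 times Cebpd in AVP-flox;Cre 1 but 0.119, 0.145 and 0.171 times it in AVP-flox;Cre 2 to 4.

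Cebpb made up 42.8, 64.7, 74.2 and 74.3% of the summed TPM of the 4 genes in AVP-flox 1 to 4, and 40.4, 1.77, 5.00 and 3.98% in AVP-flox;Cre 1 to 4. Cebpg made up 46.4, 25.6, 18.8 and 19.6% in AVP-flox and 42.0, 81.5, 59.2 and 70.1% in the Cre group. Family mRNA in AVP-flox;Cre 2 to 4 was thus mostly Cebpg. AVP-flox;Cre 1 and AVP-flox 1 were close in the shares of Cebpb and Cebpg, but Cebpd made up 15.8% in the former and 7.89% in the latter, and Cebpa 1.75% and 2.94%. The sums were 118 ± 44.9 TPM in AVP-flox and 41.0 ± 14.4 TPM in the Cre group (SD, n = 4 each), with 61.69 TPM in AVP-flox;Cre 1 against 64.23 TPM in AVP-flox 1. In bulk RNA, fewer cells of a type and less RNA per cell cannot be told apart, for these levels as for all others here.

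**Figure D2:**
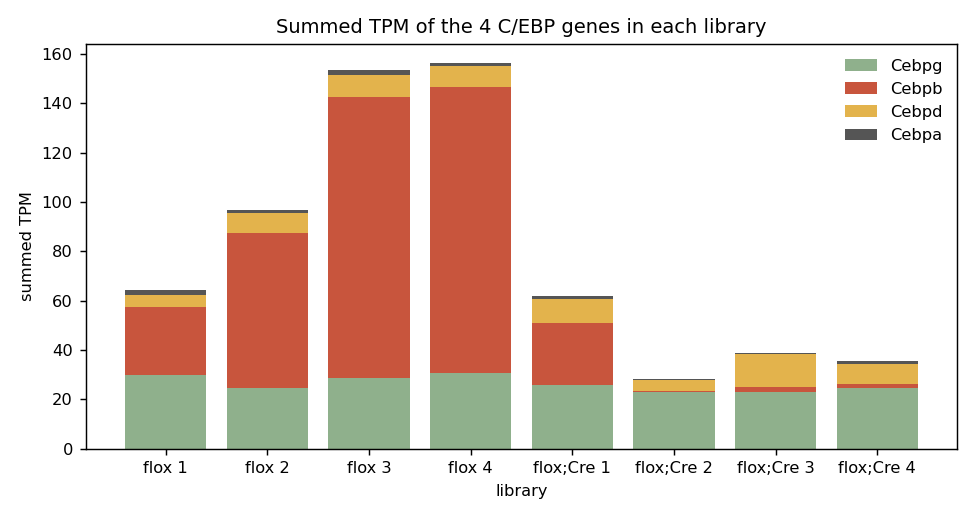
Stacked bars of the TPM of Cebpg, Cebpb, Cebpd and Cebpa in each library, with the bar height as their summed TPM. The Cebpg segment stays between 22.97 and 30.55 TPM, and Cebpb accounts for 74.3% of the sum in AVP-flox 4 but for 1.77% in AVP-flox;Cre 2.

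Over the 8 libraries Pearson's r of log2(TPM + 1) was 0.788 between Cebpa and Cebpb, 0.785 between Cebpb and Cebpg and 0.872 between Cebpa and Cebpg, and from -0.141 to 0.147 between Cebpd and the others. These are descriptions over libraries that include both groups.

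The sequencing kit named in the labels does not keep strand, so reads from a gene and from a partner on the opposite strand cannot be told apart where they overlap. In GENCODE M21 the gene Peds1, a plasmalogen enzyme that it lists as Tmem189, overlaps Cebpb by 908 bp on the opposite strand. Peds1 was at 101.57, 94.95, 98.25 and 89.33 TPM in AVP-flox and 72.33, 52.72, 71.41 and 46.4 TPM in the Cre group, and it fell by 0.68 on the log2 scale (SE 0.14, adjusted p = 0.00584). AVP-flox;Cre 1 and 3 were nearly equal in Peds1, unlike in Cebpb. The non-coding A530013C23Rik, 759 bp from Cebpb, was at 0.30 to 0.87 and 0.29 to 1.29 TPM.

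The antisense gene Gm45091, which overlaps Cebpa by 313 bp, was at 0.79 to 1.68 TPM in AVP-flox and 0.22 to 0.45 TPM in the Cre group, under the level tested, with groups that did not overlap. Spidr, a DNA repair gene that overlaps Cebpd by 1808 bp on the opposite strand, had a log2 difference of -0.13 (SE 0.15, adjusted p = 0.554). The genes annotated within Cebpg were at 3.44 TPM or less in every library. Gm45094 among them had a log2 difference of 0.43 (adjusted p = 0.307).

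Genes that share the single exon or the base composition of Cebpb are set beside it here, properties that the choice of members did not use. Of 130 protein-coding genes with 1 exon and at least 10 TPM in AVP-flox, 53 were called lower (40.8%) and 8 higher (6.15%), with a median log2 difference of -0.33. Over all 9270 protein-coding genes at that level 21.9% were called lower and 16.1% higher, with a median of -0.06. Cebpb had the lowest value of the 130, at -4.11, and the next were Tmem200b at -1.67 and Tmem158 at -1.63.

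The first 300 nt of the longest transcript held 76.0% GC in Cebpb, 75.3% in Cebpa, 68.0% in Cebpd and 67.7% in Cebpg. Of the 9822 genes with at least 10 TPM in AVP-flox, 21.9% were called lower and 15.9% higher. With 70 to 80% GC in those 300 nt, 450 of 1536 were called lower (29.3%) and 11.2% higher. Above 80% GC it was 50 of 114 lower (43.9%) and 5.26% higher, and at up to 50% GC 221 of 1239 lower (17.8%) and 18.0% higher. In the class above 80%, which does not hold Cebpb, the library medians relative to AVP-flox were -0.14 in AVP-flox;Cre 1 and -0.55, -0.40 and -0.64 in AVP-flox;Cre 2 to 4. In the class from 70 to 80%, which holds Cebpb and Cebpa, these medians were -0.06, -0.21, -0.13 and -0.15. AVP-flox;Cre 1 was nearest to AVP-flox in both classes. Among the single-exon genes the medians were -0.27, -0.51, -0.22 and -0.30, with AVP-flox;Cre 3 nearest. Single-exon genes above 70% GC had -0.21, -0.62, -0.18 and -0.40, again with AVP-flox;Cre 3 nearest. After a correction of each library for its trend with this GC share the log2 differences were -3.92 for Cebpb, -0.36 for Cebpa, 0.16 for Cebpd and -0.20 for Cebpg.

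**Figure D3:**
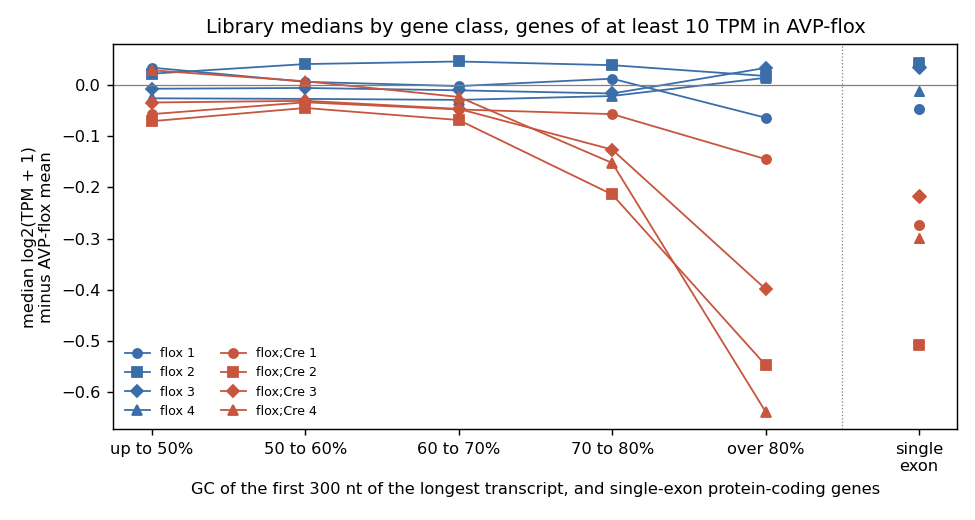
Median over genes of log2(TPM + 1) minus the AVP-flox mean in each library, for 5 classes of GC share in the first 300 nt of the transcript and for single-exon protein-coding genes, with AVP-flox in blue and the Cre group in red. Above 80% GC the Cre medians run from -0.14 in replicate 1 to -0.64 in replicate 4, while at up to 50% GC they lie from -0.07 to 0.03.

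The 6 genes most like Cebpb over the 8 libraries, by Pearson's r of log2(TPM + 1) among genes averaging 10 TPM or more, were Arhgdig (r = 0.988), Tmem200b (0.988), Vps54 (0.985), Chaserr (0.984), Gal3st1 (0.982) and Phc2 (0.978). Arhgdig was at 42.99, 84.65, 101.22 and 84.08 TPM in AVP-flox and 37.91, 11.27, 12.79 and 10.04 TPM in the Cre group. Phc2, a Polycomb protein, was at 63.78, 90.46, 98.76 and 104.14 TPM and then at 59.69, 26.45, 24.64 and 18.96 TPM. In all 6, AVP-flox;Cre 1 was the highest library of its group, and AVP-flox 1 was the lowest of AVP-flox.

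Tmem200b, a gene with 1 exon, was at 22.1, 30.82, 40.39 and 42.98 TPM in AVP-flox and 27.71, 6.75, 6.91 and 6.38 TPM in the Cre group, so AVP-flox;Cre 1 was above AVP-flox 1. Vps54, a subunit of the GARP tethering complex, showed this too, with 16.13 TPM in AVP-flox;Cre 1 against 15.46 TPM in AVP-flox 1. The ratio of AVP-flox to the Cre group means among the 6 ran from 1.45 in Gal3st1, a sulfotransferase of glycolipid synthesis, to 4.35 in Arhgdig, below the 11.1 of Cebpb. The first 300 nt held 79.0% GC in Arhgdig, 81.3% in Tmem200b, 80.3% in the long non-coding RNA Chaserr, 70% in Phc2, 64.0% in Gal3st1 and 53.7% in Vps54.

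**Figure D4:**
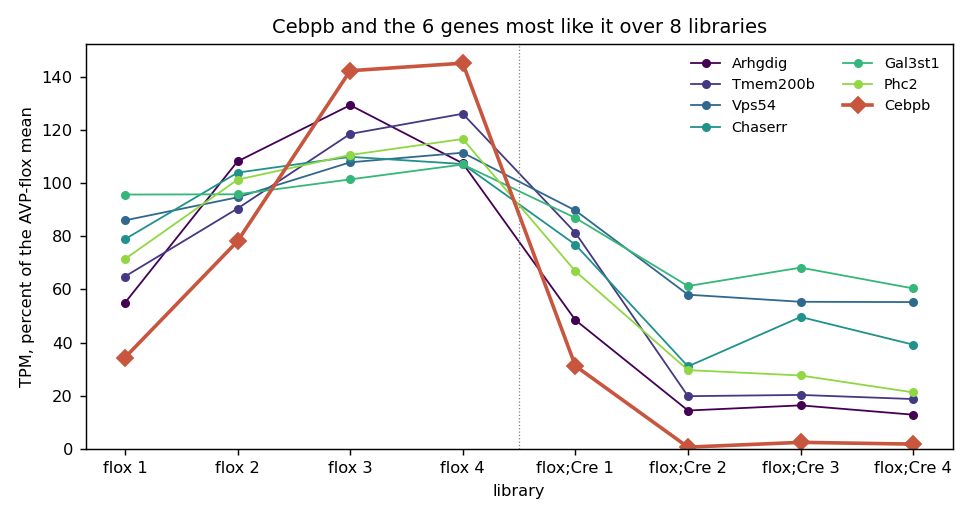
TPM of Cebpb and of the 6 genes most like it in each library, as percent of that gene's AVP-flox mean. AVP-flox;Cre 1 holds 31.2% of the AVP-flox mean for Cebpb and lies above AVP-flox;Cre 2 to 4 in all 7 genes.

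Other members had other companions. The genes most like Cebpa were Sytl2 (r = 0.981), a Rab effector of vesicle traffic, Fa2h (0.972), a fatty acid hydroxylase, and Zfp715 (0.966). Those most like Cebpd were Errfi1 (0.954), a feedback inhibitor of the EGF receptor, Klf13 (0.954) and Cdc42ep1 (0.927), of which Errfi1 was also highest in AVP-flox;Cre 3 at 84.34 TPM. Those most like Cebpg were Anks1 (0.973), 4930461G14Rik (0.963) and Ndufa9 (0.962), a subunit of respiratory complex I.

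The relatives and dimer partners of the family were read from the fit across all genes. Of 24 listed basic leucine zipper genes and relatives 22 were tested, 2 rose, 5 fell and 15 missed the threshold. That is 31.8% called, near the 27.3% of all tested genes. The median log2 difference was 0.13 against -0.01 over all tested genes, but it was 0.02 without AVP-flox 2, 0.0078 without AVP-flox;Cre 2 and -0.09 with AVP-flox;Cre 1 alone on its side. Ddit3, which encodes the dominant-negative C/EBP relative CHOP, was at 268.9, 280.9, 261.23 and 302.99 TPM in AVP-flox and 61.26, 82.62, 108.55 and 67.29 TPM in the Cre group. The groups were far apart, and Ddit3 fell by 1.82 (SE 0.15, adjusted p = 5.66e-05). Its value sums 2 gene identifiers, of which the minor one reached 28.93 TPM at most.

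Ddit3 was above each of the 4 C/EBP genes in every library, and unlike Cebpb it was lowest in AVP-flox;Cre 1. Nfil3, a repressor of the related PAR family, was at 12.07 to 19.83 TPM in AVP-flox and 1.77 to 4.27 TPM in the Cre group and fell by 2.01 (SE 0.23, adjusted p = 0.000288). The clock-controlled PAR factors Dbp and Tef, which share binding sites with it, rose by 1.44 (SE 0.23, adjusted p = 0.00151) and 1.02 (SE 0.17, adjusted p = 0.00228). Dbp went from 33.10 to 74.61 TPM in AVP-flox to 113.92 to 177.94 TPM in the Cre group.

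Cebpz, a CCAAT-binding protein without a leucine zipper, was at 22.58 to 28.93 TPM in AVP-flox and 18.31 to 20.93 TPM in the Cre group and fell by 0.39 (SE 0.11, adjusted p = 0.0208). That call ended without the filter on low values (adjusted p = 0.0799) and when any of 4 libraries was left out, while the difference stayed between -0.39 and -0.34 in these settings. The adjusted p was 0.055 in the absence of AVP-flox 1, 0.0567 in that of AVP-flox 2, 0.0517 in that of AVP-flox;Cre 1 and 0.0574 in that of AVP-flox;Cre 3. Jund, an AP-1 subunit, and Nfe2l2, the oxidative stress factor NRF2, fell by 1.09 (adjusted p = 0.016) and 0.57 (adjusted p = 0.0035). Atf4, the partner of C/EBPγ, was at 42.54 to 68.45 and 36.09 to 75.61 TPM and did not pass (-0.06, SE 0.22, adjusted p = 0.871). Cebpe, the granulocyte member, ranged from 0 to 0.04 TPM in AVP-flox and from 0 to 0.2 TPM in the Cre group and was not tested.

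Of 29 listed receptors and signals that induce C/EBP genes, all tested, 6 rose, 3 fell and 20 missed the threshold. The 31.0% called is near the 27.3% of all tested genes, and the median of 0.03 ranged from -0.0042 to 0.07 over the alternatives. Il6st, the shared receptor chain of the interleukin-6 family, was at 92.72, 101.54, 86.41 and 98.26 TPM in AVP-flox and 165.3, 161.31, 163.5 and 192.93 TPM in the Cre group and rose by 0.84 (SE 0.08, adjusted p = 0.000106), and the interleukin-1 receptor Il1r1 rose by 0.75 (SE 0.11, adjusted p = 0.000988).

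The genes that fell among these were Rela, an NF-κB subunit, by 0.60 (SE 0.10, adjusted p = 0.00173), Crtc3, a CREB coactivator, by 0.42 (adjusted p = 0.0242), and the kinase Jak2 by 0.98 (adjusted p = 0.0352). Jak2 was at 25.6 TPM in AVP-flox;Cre 1 and at 9.33, 11.77 and 7.27 TPM in AVP-flox;Cre 2 to 4, against 23.52 to 27.19 TPM in AVP-flox, so its replicate 1 lay inside the AVP-flox range. Prkaca, a catalytic subunit of the cyclic AMP-dependent kinase, had the same arrangement, with 70.49 TPM in AVP-flox;Cre 1, 15.34, 35.11 and 8.87 TPM in AVP-flox;Cre 2 to 4 and 60.6 to 73.86 TPM in AVP-flox. Its log2 difference of -1.45 (SE 0.50) did not pass (adjusted p = 0.0548). Creb1, Crem, Nfkb1 and Il6ra were among those that did not pass, with differences from -0.03 to 0.03.

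Of 26 genes of C/EBP turnover, modification and translation 4 rose, 5 fell and 17 missed the threshold, or 34.6% called against 27.3% of all tested genes. The median was -0.11, and lay between -0.07 and -0.05 when replicate 2 or 3 of AVP-flox, or replicate 1 or 4 of the Cre group, was left out. Hdac1, a deacetylase corepressor, rose by 0.61 (SE 0.06, adjusted p = 0.000184) and Eif2ak2, the kinase PKR, by 0.72 (SE 0.13, adjusted p = 0.00303). Cdk2 rose by 0.46 (adjusted p = 0.0194). Trib3, a pseudokinase and a target of CHOP, was at 6.32 to 15.98 TPM in AVP-flox and 2.43 to 4.30 TPM in the Cre group and fell by 1.38 (SE 0.25, adjusted p = 0.00347).

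Cop1, the ubiquitin ligase that Tribbles proteins bring to C/EBPα, was at 11.95, 18.37, 33.74 and 30.99 TPM in AVP-flox and 12.36, 6.47, 6.1 and 6.02 TPM in the Cre group and fell by 1.45 (SE 0.32, adjusted p = 0.00902). It shared with Cebpb a low AVP-flox 1 and a high AVP-flox;Cre 1, and its groups overlapped. The methyltransferase Carm1, the kinase Gsk3a and the chaperone Calr fell by 0.73 (adjusted p = 0.0126), 0.94 (adjusted p = 0.0179) and 0.45 (adjusted p = 0.0472).

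Of the acute phase and inflammatory C/EBP targets, 8 rose in the Cre group. Of 30 listed genes 15 averaged 1 TPM or more and were tested, and of these 8 rose, 0 fell in limma and 7 did not pass, which is 53.3% higher against 13.1% of all tested genes. The median difference of the 15 was 0.56. It was 0.08 over all 30 genes without the filter, 1.58 over the 9 of at least 5 TPM, and 0.87, 0.87 and 0.97 in the absence of AVP-flox 1, AVP-flox 4 and AVP-flox;Cre 3. At an unadjusted p under 0.05 there was 1 lower gene, Serpina3n, a protease inhibitor (-0.81, adjusted p = 0.0591). It passed the filter only through AVP-flox, at a mean of 1.62 TPM against 0.445 TPM in the Cre group. In the list 1 gene was called lower without the variance trend, after the GC correction and without AVP-flox 2. Lcn2, a siderophore-binding injury marker, was at 32.71, 58.5, 64.34 and 62.51 TPM in AVP-flox and 194.49, 402.38, 201.61 and 218.46 TPM in the Cre group and rose by 2.18 (SE 0.27, adjusted p = 0.000372).

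Cp, the copper oxidase ceruloplasmin, was at 43.25 to 49.47 TPM in AVP-flox and 135.71 to 163.39 TPM in the Cre group and rose by 1.62 (SE 0.08, adjusted p = 5.72e-06). Ccl2, a monocyte chemokine, rose by 2.13 (SE 0.16, adjusted p = 3.38e-05), and Cd14, the endotoxin co-receptor, by 1.29 (SE 0.10, adjusted p = 3.55e-05). In Lcn2, Cp, Ccl2 and Cd14 alike AVP-flox;Cre 1 was above every AVP-flox library, unlike its intermediate level in Cebpb. The 15 genes under 1 TPM included Saa1, Saa2, Il6, Il1b and Nos2, all at under 1 TPM in every library.

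Of 28 listed metabolic and growth-arrest C/EBP targets 24 were tested, 3 rose, 3 fell and 18 did not pass. The 25.0% called is near the 27.3% of all tested genes, and the median of -0.19 was -0.09 without AVP-flox 1, -0.10 without AVP-flox 3 and -0.07 without AVP-flox;Cre 1. The metallothioneins Mt1 and Mt2, metal-binding proteins of the stress response, were the list genes with the smallest adjusted p. Mt1 was at 742.33, 560.06, 643.95 and 389.42 TPM in AVP-flox and 86.6, 109.56, 106.57 and 104.8 TPM in the Cre group and fell by 2.47 (SE 0.17, adjusted p = 2.3e-05), and Mt2 fell by 2.98 (SE 0.27, adjusted p = 8.09e-05).

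Id2, an inhibitor of helix-loop-helix factors, also fell, by 0.33 (adjusted p = 0.0384). Pck2, the mitochondrial enzyme of gluconeogenesis, rose by 0.43 (SE 0.10, adjusted p = 0.0106), Hsd11b1, which activates glucocorticoids, by 0.37 (SE 0.09, adjusted p = 0.0138), and Igf1 by 0.29 (adjusted p = 0.0312). The call of Hsd11b1 ended after the GC correction (adjusted p = 0.11). Cdkn1a, the cell cycle inhibitor p21, did not pass (-0.55, SE 0.19, adjusted p = 0.0542), nor did Pparg, the adipogenic partner of C/EBPα (-0.32, adjusted p = 0.289).

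Of 24 listed amino acid response targets that C/EBP factors share with ATF4, 23 were tested, 5 rose, 12 fell and 6 did not pass. Thus 52.2% fell against 14.2% of all tested genes, with a median of -0.37. Aars1, the alanyl-tRNA synthetase, was at 123.83, 126.65, 125.68 and 123 TPM in AVP-flox and 54.25, 49.1, 57 and 50.2 TPM in the Cre group and fell by 1.23 (SE 0.07, adjusted p = 6.7e-06).

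Asns, asparagine synthetase, fell by 1.24 (SE 0.09, adjusted p = 2.66e-05), Nupr1, a stress-induced chromatin protein, by 1.40 (SE 0.13, adjusted p = 8.43e-05), and Sars1, the seryl-tRNA synthetase, by 0.65 (SE 0.06, adjusted p = 0.000118). AVP-flox;Cre 1 lay within the range of the other Cre libraries in Aars1, Asns and Nupr1, unlike in Cebpb. In Sars1 it was the lowest of its group at 87.29 TPM. The list was not uniform in this, since AVP-flox;Cre 1 was the highest Cre library in Mthfd2 (27.91 TPM) and in the uncalled Gclc (158.43 TPM). Those that rose were Wars1 (0.41, adjusted p = 0.00193), Stc2 (0.72, adjusted p = 0.0177), Vldlr (0.35, adjusted p = 0.0283), Slc7a1 (0.50, adjusted p = 0.0413) and Phgdh (0.49, adjusted p = 0.0494), so the list did not move in 1 direction.

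**Figure D5:**
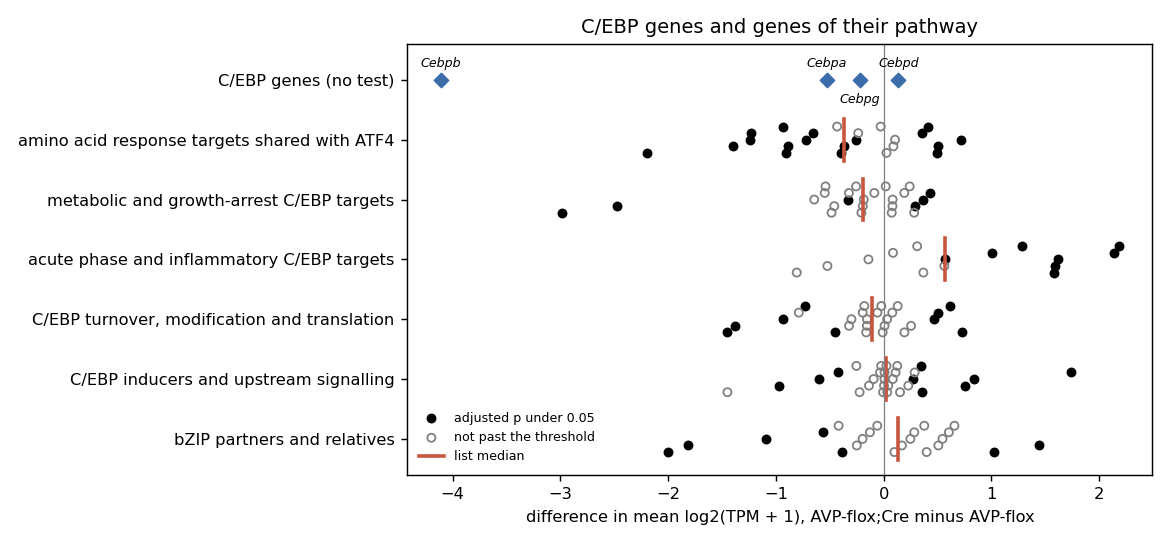
Difference in mean log2(TPM + 1), AVP-flox;Cre minus AVP-flox, for the tested genes of 6 lists and for the 4 C/EBP genes, with black points for an adjusted p under 0.05 in limma and red bars for list medians. Cebpb at -4.11 lies left of every list gene, the acute phase list has its called genes on the right, and the amino acid list has 12 of 17 called genes on the left.

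Markers of other cells that express C/EBP genes were measured beside these levels, and their part in the differences above was not tested. Of 20 myeloid markers 13 were tested, and 2 rose, or 15.4%, near the 13.1% of all tested genes. These were Aif1 (1.33, adjusted p = 0.000535) and Csf1r (1.10, adjusted p = 0.0049), and 0 fell in limma. At an unadjusted p under 0.05 in that fit 5 were higher and 0 lower. The list median was 0.43 against -0.01 over all tested genes, so the list lay higher than the share of calls shows. The myeloid markers summed to 228 to 520 TPM in AVP-flox and 346 to 607 TPM in the Cre group, with AVP-flox;Cre 1 highest. Much of these sums was Cd74, without which they were 164 to 269 TPM and 200 to 334 TPM. The neutrophil marker Ly6g was listed at 0 to 0.13 TPM. Of 16 markers of fibroblasts, pericytes and adipocytes 12 were tested and 0 fell, also at an unadjusted p under 0.05. By limma 5 rose, or 41.7% against 13.1% of all tested genes. They were Col1a2 (1.33, adjusted p = 3.38e-05), Pdgfra (1.06, adjusted p = 0.000221), Tagln (1.09, adjusted p = 0.000428), Dpt (1.86, adjusted p = 0.000615) and Acta2 (0.87, adjusted p = 0.00366). Dpt averaged 0.77 TPM in AVP-flox and 5.5 TPM in the Cre group, so only the Cre group carried it past the 1 TPM filter. The 16 markers summed to 221 to 287 TPM in AVP-flox and 375 to 459 TPM in the Cre group. The adipocyte markers Plin1, Adipoq and Cidec stayed under 1 TPM in every library.

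Of 10 endothelial markers 5 rose and 2 fell, with sums of 2524 to 2598 and 2253 to 2339 TPM. The lower sum rests on Emcn, since the other 9 summed to 1836 to 1878 TPM in AVP-flox and 1914 to 1944 TPM in the Cre group. Emcn fell by 0.96 (adjusted p = 3.38e-05) and Pecam1 by 0.41 (adjusted p = 0.0033), while Tie1 rose by 1.05 (adjusted p = 0.000232), Eng by 0.50 (adjusted p = 0.000286), Tek by 0.63 (adjusted p = 0.000299), Flt1 by 0.56 (adjusted p = 0.00319) and Kdr by 0.65 (adjusted p = 0.00381). Of 12 markers of proximal tubule, thick limb and distal tubule 10 were tested and 0 passed by limma (1 at an unadjusted p under 0.05, lower), with sums of 351 to 2711 TPM in AVP-flox, lowest in AVP-flox 2, and 712 to 887 TPM in the Cre group. Of 16 IMCD and principal cell markers 6 rose (37.5%) and 4 fell (25.0%), against 13.1% and 14.2% of all tested genes. Aqp2 fell by 1.35 (adjusted p = 3.38e-05), Aqp4 by 0.78 (adjusted p = 0.000492), Aqp3 by 0.63 (adjusted p = 0.00387) and Elf5 by 0.40 (adjusted p = 0.0378), and the sodium channel subunit Scnn1b rose by 1.28 (adjusted p = 8.1e-05), Epcam by 0.52 (adjusted p = 0.000186) and the kidney cadherin Cdh16 by 0.82 (adjusted p = 0.000433). The IMCD sums were 22888 to 27480 TPM in AVP-flox and 15692 to 18173 TPM in the Cre group, and AVP-flox;Cre 1, at 18066 TPM, lay within its group. The lower sum rests on Aqp2, since the other 15 markers summed to 7717 to 9655 TPM in AVP-flox and 10249 to 12024 TPM in the Cre group.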

How the data were processed

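RNA of 8 mouse kidney libraries labelled IMCD was measured as TPM. The deposited TPM table was made by the authors with STAR and RSEM among the tools, per the submitters' processing notes, which give no versions. The cDNA came from 1 ng of RNA with the SMART-Seq HT kit, per the labels' protocols. Neither the genome build nor the annotation is given in the sources used here. WT columns were taken as AVP-flox and KO columns as AVP-flox;Cre, by replicate number. 312 symbols shared by several of the 78298 identifiers were summed, which left 77981 genes. Depth is unknown, so no counting interval is given.

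R 4.3.3 with limma 3.58.1 compared AVP-flox;Cre with AVP-flox on log2(TPM + 1) for the 19043 genes averaging 1 TPM or more, with a mean-variance trend and two-sided p-values, adjusted by Benjamini-Hochberg across these genes (threshold 0.05). The fit was tested on simulated data. A difference on this scale understates the change of low genes. GENCODE M21, which may not be the authors' release, supplied exons, overlaps and GC, with a GC value for 87.4% of tested genes.

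The members and lists were chosen with earlier results of these data known. Text names the members, their relatives Cebpe, Cebpz, Ddit3 and Atf4, up to 4 called genes of each list by adjusted p, the genes most like each member (6 for Cebpb, 3 for the others) and annotated neighbours. Other list genes, Tmem158 among single-exon genes, Prkaca and Serpina3n were named after their values were seen. Alternatives were a replicate block, pseudocounts of 0.1 and 5 TPM, filters, scalings, variance models, library weights, a GC correction and libraries left out. The values of some genes that this rule names are not reported here.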

Additional observations from a re-analysis of the deposited data

Results flagged for a closer look

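Single libraries were checked in each group of 4 for 59 named genes, and in 13 of the 118 groups 1 library stood far from the other 3 by Dixon's criterion, which chance meets in about 1 group in 20. Cebpb was at 24.95 TPM in AVP-flox;Cre 1 against 0.5 to 1.94 TPM in the other 3 libraries. The same library stood apart upward in 3 of the 6 genes most like Cebpb, Arhgdig at 37.91 TPM (others 10.04 to 12.79), Tmem200b at 27.71 TPM (6.38 to 6.91) and Vps54 at 16.13 TPM (9.93 to 10.43). These 3 genes were picked for their likeness to Cebpb, so this is no separate evidence. Cebpb itself was chosen with its differences between Cre libraries in view. The 13 groups include Cebpb and these 3 genes, so their number cannot be compared with that chance rate.

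The AVP-flox;Cre group held 4 more. Cebpe was at 0.2 TPM in AVP-flox;Cre 4 (others 0 to 0.03), Il6st at 192.93 TPM in AVP-flox;Cre 4 (161.31 to 165.3), Lcn2 at 402.38 TPM in AVP-flox;Cre 2 (194.49 to 218.46) and Col1a2 at 59.72 TPM in AVP-flox;Cre 3 (70.19 to 71.42).

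In AVP-flox, replicate 1 was lowest for Asns at 47.69 TPM (others 56.5 to 57.6), for Cdh16 at 1526.15 TPM (1908.44 to 1946.15) and for Pck2 at 26.79 TPM (33.92 to 35.17). Tagln was at 22.92 TPM in AVP-flox 4 (16.08 to 16.37), and Ndufa9, a gene like Cebpg, was at 185.24 TPM in AVP-flox 2 (230.78 to 239.39).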

How the results depend on the processing

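The log2 difference of Cebpb stayed below 0 under every alternative run, from -5.00 to -1.44, and that of Cebpa too. The groups of both genes did not overlap, so leaving libraries out or changing the pseudocount could not have reversed the sign. Nothing is read from the constant sign in those settings. Cebpa moved to -0.96 and -0.18 with pseudocounts of 0.1 and 5 TPM, and it has no value under a filter at 5 TPM. With no filter on low values 3409 genes were changed against 5204 (1766 higher and 1643 lower against 2491 and 2713), and the calls in the inducer and amino acid lists fell from 9 to 4 and from 17 to 9. With AVP-flox;Cre 1 alone on its side, its spread being assumed equal to that of AVP-flox, 312 genes were changed, Cebpa was at -0.28 and Cebpb at -1.44, and the lists held 1 (relatives and partners), 2 (inducers), 0 (turnover), 2 (acute phase), 2 (metabolic) and 4 (amino acid) called genes. That setting, which leaves fewer samples, ended the call of 25 of 39 named genes and reversed 0. With each library left out in turn the ranges were 4006 to 4767 genes changed, -0.61 to -0.46 for Cebpa, -5.00 to -3.63 for Cebpb, -0.07 to 0.41 for Cebpd and -0.29 to -0.19 for Cebpg. Called genes ranged from 6 to 8 (relatives and partners), 6 to 10 (inducers), 7 to 10 (turnover), 7 to 8 (acute phase), 4 to 8 (metabolic) and 12 to 16 (amino acid). The uncalled Atf4 (-0.25 to 0.10 with each library left out) changed sign without AVP-flox 1 (0.06) and without AVP-flox;Cre 4 (0.10), and the cause was not tested. Of 777 values of these 39 named genes under the other alternatives 769 kept direction and call. Most of the 39 were far under the threshold in the main fit. Calls nearer to it, such as those of Jak2, Calr, Phgdh, Slc7a1, Id2, Igf1 and Crtc3, are not among them. The share kept therefore cannot be carried over to such genes. Same-numbered libraries did not deviate together (correlations of 0.001, 0.015, 0.095 and 0.004), and 1 of 4 libraries correlated best with its own number. A weak pairing could be missed this way, so whether the numbers pair the samples is unknown. The replicate block gave 4431 genes changed, left the log2 difference of each member as it was (-4.11 for Cebpb) and called 7, 8, 9, 7, 6 and 14 genes of the lists in the order above. TPM keeps no depth, so the counting error of the low values of Cebpb in AVP-flox;Cre 2 to 4 and of Cebpa is unknown.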
